A study of Mus musculus with 3 samples.

Results

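Bleeding in acute promyelocytic leukemia (APL) is attributed to clotting proteins and fibrin-dissolving proteins made by the leukemic promyelocytes, and 10 genes of that kind were read in TBLR1-RARα (TR) mouse leukemia. The set held the clotting genes F3, F5, F7, F10 and F13a1 and the fibrinolytic genes Plau, Plaur, Anxa2, S100a10 and Serpinb2. They were chosen by name for the roles of their products in APL, with no threshold on their values. These genes and all lists below were, however, chosen with earlier results of these data known. Shares of called genes set beside those of all genes therefore describe the sets and do not test them. All 10 were among the 16742 genes listed in at least 1 of the 3 libraries, and no filter on low values was applied. The study sequenced RNA of bone marrow cells of C57BL/6 mice, labelled as 6 to 8 weeks old, to compare leukemic cells with normal ones. The control library pooled lin- cells, which are the cells left after mature lineages are removed, from 3 wild-type mice that received neither vector nor graft. The TR1 and TR9 libraries each pooled GFP+ cells from 3 mice of the third transplant generation of a leukemia that carried TR, a fusion of TBLR1 to retinoic acid receptor α, on a retrovirus that also encodes GFP. TR was expressed from the retroviral vector in lin- cells rather than from its own locus, and each line descended from 1 primary leukemic mouse, so that TR1 and TR9 are each a single leukemia. Genotype, disease, transplantation and the way cells were isolated all differ between the control and the TR libraries and cannot be told apart.

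Clotting starts when tissue factor, encoded by F3, binds factor VII, and the pair activates factor X. Factor Xa with its cofactor, factor V, makes thrombin, which turns fibrinogen into fibrin, and the A chain of factor XIII then cross-links the fibrin. Fibrinolysis reverses this: plasminogen activators such as urokinase turn plasminogen into plasmin on the cell surface, held there by the urokinase receptor or by the annexin A2 and S100A10 pair, and plasminogen activator inhibitor 2 blocks urokinase. High annexin A2 on APL cells is a textbook feature of its hyperfibrinolysis, and tissue factor is the usual initiator named for its clotting.

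The expected counts totalled 5488778 for control, 5571409 for TR1 and 5129662 for TR9. Expected counts are reads assigned to a gene by RSEM, and FPKM scales them by transcript length and library total, so that levels of different genes are compared in FPKM only. A gene was called when the exact Poisson test of its counts passed a false discovery rate of 0.001 over all genes and its FPKM ratio was at least 1 on the log2 scale in size. With 1 library per group this test compares the reads of the libraries and not the conditions, and no difference here has a replicate check. The 95% exact intervals given with counts and folds cover counting error only, and folds with an interval are of CPM, the count scaled by the library total alone. The 7 promyelocyte and granulocyte markers had summed levels of 4140, 29008 and 27354 FPKM in control, TR1 and TR9. Of these, 6 were called higher in both lines, and Mpo was called higher in TR1 only.

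Of the 10 genes, 5 were called in each line, beside 21.3% of all genes in TR1 and 20.4% in TR9. In TR1, 4 were called higher than in control (F7, F10, F13a1 and Anxa2), beside 8.13% of the 16282 genes tested. There, 1 gene (Serpinb2) was called lower, beside 13.2% of all genes. In TR9, 3 genes were called higher (F7, F13a1 and Anxa2), beside 9.48% of 16303 genes, and 2 were called lower (S100a10 and Serpinb2), beside 10.9%. F7, F13a1 and Anxa2 were thus called higher in both lines, where 5.71% of all listed genes were, and Serpinb2 was called lower in both, where 8.51% were. Both lines share the control library, so these calls are not independent. When edgeR's exact test was run with an assumed coefficient of variation of 0.4 between libraries, F7 stayed called in both lines and the calls of the other members were lost. The median log2 ratio of the 10 genes was 0.25 in TR1 and −0.03 in TR9, beside −0.29 and −0.12 over all genes tested, and the TR9 median turned to 0.08 under TMM scaling. These medians include F3, whose ratio rests on 1 count against 0 and on the floor of 0.01 FPKM. At a minimum of 10 counts, which left 9 of the genes, they were 0.85 and 0.26, beside −0.28 and −0.12 over all genes. TMM scaling moved the median log2 ratio of all genes from −0.29 to −0.04 in TR1 and from −0.12 to −0.01 in TR9. It changed the genes called higher and lower to 10.5% and 9.91% of all genes in TR1 and to 10.6% and 9.34% in TR9.

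**Figure D1:**
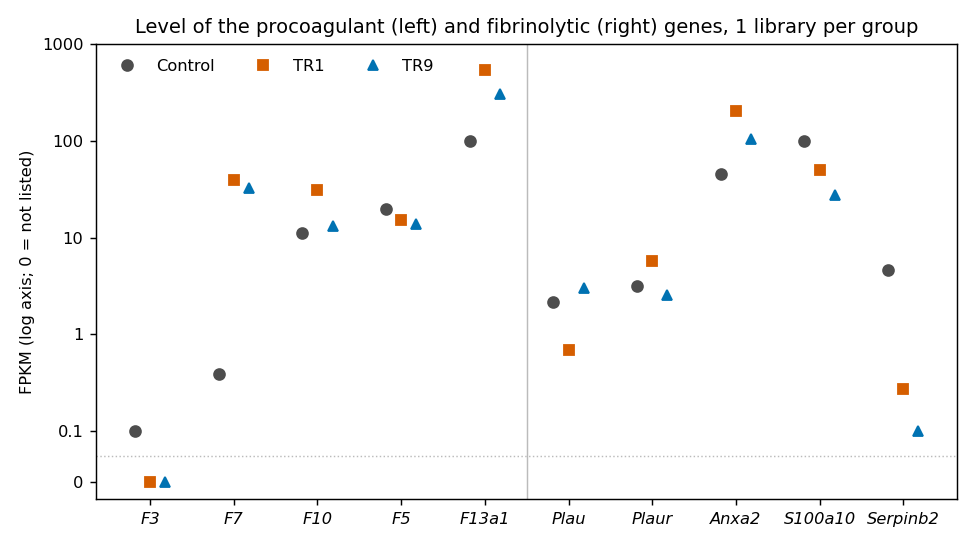
FPKM of each of the 10 genes in the control, TR1 and TR9 libraries on a logarithmic axis, with points at 0 for genes not listed. F7 lies at 0.39 FPKM in control and at 39.60 and 32.20 FPKM in TR1 and TR9, and F3 is at or near 0 throughout.

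F13a1 stood at the top of the set. In control, S100a10 (99.25 FPKM) and F13a1 (98.78 FPKM) came first with overlapping intervals, followed by Anxa2 (45.81 FPKM) and F5 (19.58 FPKM). In TR1 the order became F13a1 (543.15 FPKM), Anxa2 (201.10 FPKM), S100a10 (49.90 FPKM) and F7 (39.60 FPKM), and the intervals of the last pair overlapped. In TR9 it was F13a1 (301.44 FPKM), Anxa2 (104.22 FPKM), F7 (32.20 FPKM) and S100a10 (27.45 FPKM), again with overlapping intervals for the last pair. F13a1 made up 34.7%, 61.3% and 60.5% of the summed FPKM of the 10 genes in control, TR1 and TR9. The intervals of F5 and F10 overlapped in TR9. Those of Plau and Plaur overlapped in control and TR9. In TR1 Plaur lay above Plau with separate intervals, and Plau overlapped with Serpinb2.

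F3, tissue factor, was not detectable at this depth. Control held 1 count (0.10 FPKM) and both TR libraries held 0, where a count of 0 allows up to a CPM of 0.538 and 0.585. No fold is given. The RNA of the usual initiator of clotting in APL was thus at or under 3 counts in all 3 libraries.

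F7, the protease that tissue factor binds, had the largest rise of the set. It had 4 counts in control (95% exact interval 1.09 to 10.2), 412 in TR1 (373 to 454) and 308 in TR9 (275 to 344). These are 0.39, 39.60 and 32.20 FPKM, so that both TR libraries were far above control and their intervals did not overlap it. CPM was 101-fold higher in TR1 (39.3 to 374) and 82.4-fold higher in TR9 (31.9 to 304), and the log2 ratios of FPKM were 6.67 and 6.37. F7 ranked 12651 of 15302 genes listed in control, and 1914 of 14642 in TR1 and 2514 of 14817 in TR9. F7 is normally made by hepatocytes. Of 4 hepatocyte markers, Alb, Ttr and Apoc3 had no count in any library, and Apoa1 had 2, 2 and 0 counts. Among 9671 genes with at least 5 FPKM in a library, the pair of log2 ratios of Nt5e lay nearest to that of F7, at a distance of 0.04, with 2, 204 and 149 counts in control, TR1 and TR9. Adhfe1 (1, 94 and 79 counts) and Pdzrn3 (3, 263 and 219 counts) came next.

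F10, the gene of factor X and the next gene to F7 in RefSeq order on chromosome 8, rose in TR1 and was not called in TR9. Control held 158.52 expected counts, TR1 445.57 and TR9 173.54, or 11.07, 30.95 and 13.24 FPKM. TR1 stood apart and the intervals of control (135 to 186) and TR9 (149 to 202) overlapped. Its CPM was 2.76-fold that of control in TR1 (2.30 to 3.33) and 1.17-fold in TR9 (0.939 to 1.46). The counts were not whole, so RSEM shared some of its reads with other genes or transcripts, and the mean transcript length was 2602, 2571 and 2546 bases. The FPKM of F7 was 0.0352 times that of F10 in control, 1.28 times in TR1 and 2.43 times in TR9, so their order turned in both lines.

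F5, the cofactor of factor Xa, stayed within 2-fold of control. Control held 805 counts (750 to 863), TR1 642 (593 to 694) and TR9 534 (490 to 581), or 19.58, 15.34 and 13.88 FPKM. Control was highest and its interval of counts did not overlap those of the TR lines. The log2 ratios, −0.35 and −0.50, were under the 2-fold threshold. In TR1 the log2 CPM interval of F5, −0.50 to −0.20, covered the median over all genes, −0.29. So the TR1 difference was not apart from the scaling of the libraries. In TR9 the interval, −0.66 to −0.33, lay below the median over all genes, −0.12. F5 is also a product of megakaryocytes, and all 7 megakaryocyte and platelet markers were called lower in both lines: their summed level was 926 FPKM in control, 2.85 FPKM in TR1 and 1.67 FPKM in TR9, with Pf4 and Gp6 at 0 counts in both lines. Whether fewer cells of a type or less RNA per cell lowered a gene cannot be told apart in bulk libraries. The part of these markers in the F5 values was not tested.

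The start regions of these 3 genes are shown because each holds the same 6 letters, AGGTCA or its other strand TGACCT, the sequence known as the retinoic acid receptor half-site, and TR carries the DNA-binding part of that receptor. The 100 bases before the RefSeq transcript start (GRCm38.p6) are printed 5′ to 3′ on the gene's strand, with the match in capitals: F7 at chr8:13025934-13026033 on the plus strand, F10 at chr8:13037208-13037307 on the plus strand and F5 at chr1:164151735-164151834 on the plus strand.
F7: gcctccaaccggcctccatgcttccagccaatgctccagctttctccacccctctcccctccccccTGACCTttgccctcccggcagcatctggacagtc
F10: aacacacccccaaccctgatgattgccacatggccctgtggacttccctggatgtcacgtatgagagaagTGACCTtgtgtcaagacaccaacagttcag
F5: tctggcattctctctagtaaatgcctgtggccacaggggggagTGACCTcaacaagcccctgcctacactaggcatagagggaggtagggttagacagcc
The match lies 34 to 29 bases before the start of F7, 30 to 25 before that of F10 and 57 to 52 before that of F5. Within 250 bases before a start, searched on both strands, AGGTCA was found in 3 of the 8 members with a sequence, and in 14% of all 32851 promoters. F7, F10 and F5, which share it, had log2 ratios of 6.67, 1.48 and −0.35 in TR1. The part of the match in these values was not tested. A match of letters is a description and not a binding site.

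**Figure D2:**
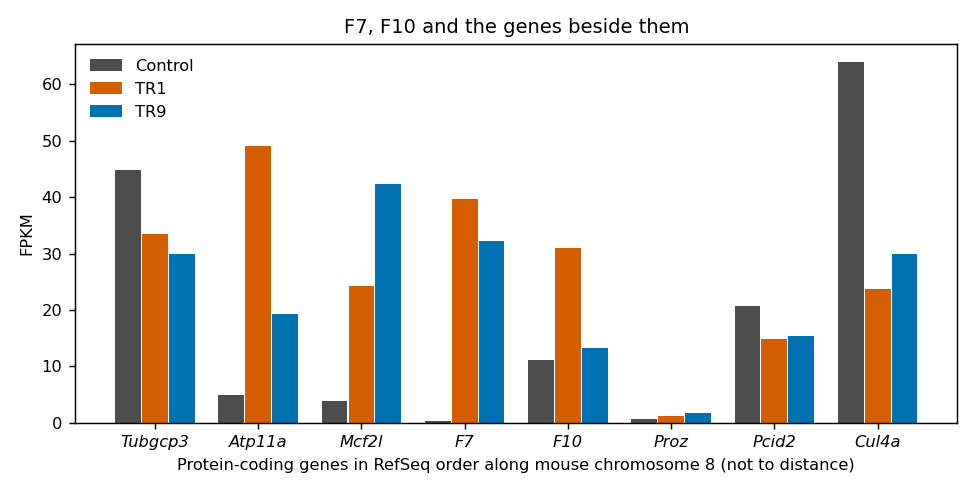
FPKM (bars) in the control, TR1 and TR9 libraries of F7, F10 and the genes around them in RefSeq order along chromosome 8, not drawn to distance. Atp11a, Mcf2l and F7 have taller bars in both TR libraries than in control, F10 has its tallest bar in TR1, and Cul4a has its tallest in control.

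Around F7 and F10, some neighbours moved with them and others did not. Upstream, Mcf2l, which encodes a guanine nucleotide exchange factor, had 113, 709 and 1134 counts in control, TR1 and TR9. Atp11a, a phospholipid flippase gene, had 205, 2064 and 748 counts. Both were called higher in both lines, as F7 was. On the other side, Proz, the gene of the anticoagulant cofactor protein Z, had 8, 17 and 22 counts and was not called. Pcid2 was not called, and Cul4a, the gene of a ubiquitin ligase scaffold, was called lower in both lines with 1282, 485 and 561 counts, although its TR9 log2 ratio of −1.10 became −0.99 and was not called under TMM scaling. Tubgcp3, beyond Atp11a, was not called.

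F13a1, the fibrin cross-linking factor XIII A chain, was the most abundant of the set in the TR lines and rose in both. It had 2118 counts in control (2029 to 2210), 11852 in TR1 (11640 to 12067) and 6048 in TR9 (5897 to 6202). All 3 intervals were separate, with TR1 highest and control lowest. CPM was 5.51-fold that of control in TR1 (5.26 to 5.78) and 3.06-fold in TR9 (2.91 to 3.21), with log2 ratios of FPKM of 2.46 and 1.61. Its rank went from 737 in control to 131 in TR1 and 192 in TR9. F13a1 is made by monocytes, macrophages and megakaryocytes, and megakaryocyte markers were near 0 in both lines, as given above. Of 8 monocyte and macrophage markers, 5 were called lower and 2 higher in TR1, and 5 lower and 1 higher in TR9. Under TMM scaling Klf4 lost its lower call in TR1. Their summed level was 158 FPKM in control, 201 FPKM in TR1 and 127 FPKM in TR9, of which the lysosomal gene Cd68 gave 21.58, 159.24 and 58.72 FPKM. Csf1r, the receptor that defines the lineage, was at 510, 141 and 81 counts. The part of these cells in the F13a1 level was not tested.

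Anxa2, the annexin that holds plasminogen and tissue-type activator at the cell surface, rose in both lines, whereas S100a10, which encodes its partner p11, did not. Anxa2 had 342 counts in control (307 to 380), 1528 in TR1 (1452 to 1607) and 728 in TR9 (676 to 783), or 45.81, 201.10 and 104.22 FPKM. Its intervals were separate in all 3 libraries. CPM was 4.40-fold that of control in TR1 (3.91 to 4.96) and 2.28-fold in TR9 (2.0 to 2.60). S100a10 had 340 counts in control (305 to 378), 174 in TR1 (149 to 202) and 88 in TR9 (70.6 to 108), or 99.25, 49.90 and 27.45 FPKM. It was lowest in TR9, and its intervals were also separate. In TR9 it was called lower with a log2 ratio of −1.85, and CPM was 3.61-fold lower (2.85 to 4.62). In TR1 its log2 ratio of −0.99 passed the test of counts but lay just inside the 2-fold threshold, and it was not called. Under TMM scaling that ratio was −0.74, further inside the threshold.

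The annexin and its partner therefore changed their order. The FPKM of Anxa2 was 0.462 times that of S100a10 in control, 4.03 times in TR1 and 3.8 times in TR9. This ratio was 8.73-fold that of control in TR1 and 8.23-fold in TR9, with 95% exact intervals of the odds ratio of counts of 6.99 to 10.9 and 6.25 to 10.9. Such a ratio does not depend on how the libraries are scaled. Between TR1 and TR9 it differed 0.942-fold, with an odds ratio interval of 0.713 to 1.25. The RNA of S100a11, the next listed S100 gene beside S100a10 on chromosome 3, moved the other way: it had 452, 1916 and 1503 counts in control, TR1 and TR9 and was called higher in both lines. The 3 genes with log2 ratios nearest to those of S100a10 were the asparagine synthetase gene Asns (701, 367 and 185 counts), Gramd4 (449, 212 and 119 counts) and Kcnk12 (63, 35 and 17 counts).

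**Figure D3:**
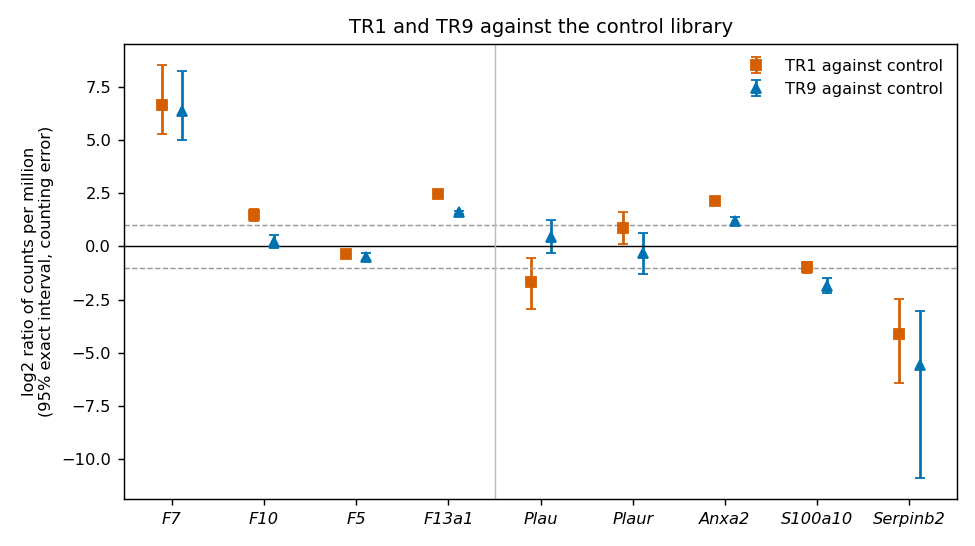
Log2 ratio of CPM against control in TR1 and TR9 for the 9 genes other than F3, with bars for the 95% exact counting interval and dashed lines at 2-fold. F7, F13a1 and Anxa2 lie above the upper line in both TR libraries, Serpinb2 lies below the lower line in both, and F7, Plau, Plaur and Serpinb2 have wide bars.

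Plau, the gene of urokinase, and Plaur, the gene of its receptor, were low in all libraries. Plau had 28 counts in control (18.6 to 40.5), 9 in TR1 (4.12 to 17.1) and 36 in TR9 (25.2 to 49.8), or 2.18, 0.69 and 2.99 FPKM. TR1 was the low library, and control and TR9 overlapped. Against control Plau was not called in either line, with an adjusted p of 0.00355 in TR1 and 0.323 in TR9 by the exact Poisson test. Plaur had 24 counts in control (15.4 to 35.7), 44 in TR1 (32.0 to 59.1) and 18 in TR9 (10.7 to 28.4), or 3.16, 5.70 and 2.54 FPKM. TR1 was highest, its interval overlapped that of control, and neither line was called, with a CPM 1.81-fold that of control in TR1 (1.07 to 3.11) and 0.803-fold in TR9 (0.410 to 1.54). The FPKM of the receptor was 1.45 times that of urokinase in control, 8.26 times in TR1 and 0.849 times in TR9. Against control, the 95% exact intervals of the odds ratio of counts were 2.15 to 15.8 in TR1 and 0.246 to 1.37 in TR9. The TR9 interval covered no change.

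Serpinb2, the gene of plasminogen activator inhibitor 2, fell to nearly no counts. It had 51 counts in control (38.0 to 67.1), 3 in TR1 (0.619 to 8.77) and 1 in TR9 (0.0253 to 5.57), or 4.64, 0.27 and 0.10 FPKM. The TR libraries overlapped each other and were both below control. CPM was 17.3-fold lower in TR1 (5.58 to 86.4) and 47.7-fold lower in TR9 (8.18 to 1919), and the wide intervals follow from the few counts. Serpinb10, the next gene in RefSeq order, moved the other way with 187, 405 and 381 counts and was called higher in both lines. Several marker lists fell with Serpinb2. Those of stroma and of mast cells and basophils had summed levels of 503, 4.66 and 8.14 FPKM and 926, 73.7 and 85.8 FPKM in control, TR1 and TR9. Of stroma markers 4 of 5, and of mast cell and basophil markers 5 of 5, were called lower in both lines. So were 7 of 7 megakaryocyte and platelet, 5 of 5 erythroid and 4 of 8 monocyte and macrophage markers. The same held for 3 of 5 stem and progenitor and 3 of 4 endothelial markers. By contrast, 6 of 7 promyelocyte and granulocyte markers and 1 monocyte marker were called higher in both. The part of these cells in the Serpinb2 level was not tested.

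Start regions of Anxa2, F13a1 and Serpinb2 are shown because these genes moved in both lines, the first pair up and the last down, and the same short motifs were searched in them. They lie at chr9:69453583-69453682 on the plus strand, at chr13:37050245-37050344 on the minus strand for the first of its 2 listed starts, and at chr1:107511323-107511422 on the plus strand for the first of its 2. Capitals mark TGANTCA, the AP-1 motif, in Anxa2 and Serpinb2, and GAGGAA, a core bound by PU.1 and other ETS factors, in F13a1.
Anxa2: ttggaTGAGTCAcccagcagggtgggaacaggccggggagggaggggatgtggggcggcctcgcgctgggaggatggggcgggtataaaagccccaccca
F13a1: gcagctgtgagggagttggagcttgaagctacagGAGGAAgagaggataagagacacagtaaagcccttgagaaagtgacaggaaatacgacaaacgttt
Serpinb2: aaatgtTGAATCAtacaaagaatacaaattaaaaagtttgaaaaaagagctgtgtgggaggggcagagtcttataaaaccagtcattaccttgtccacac
The AP-1 motif lay 95 to 89 bases before the start of Anxa2, which rose, and 94 to 88 before that of Serpinb2, which fell. It was found in 4 of 8 members (F3, Anxa2, Plaur and Serpinb2) and in 6.75% of all promoters. GAGGAA was found in 3 of 8 members (F7, F13a1 and Plaur) and in 23.3% of all promoters, and TTGCNNAA, part of the CEBP motif, in 2 of 8 (Plaur and Serpinb2) and in 9.56%. All were searched on both strands, and no matches overlapped each other. No binding was measured.

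The TR lines differed from each other in 2 of the 9 genes tested (F3 had 0 counts in both), beside 6.74% of all genes. Plau was called higher in TR9 than in TR1, with 36 and 9 counts, a log2 ratio of 2.12 and a fold of 4.34 in CPM (2.05 to 10.3), beside 4.41% of the 15706 genes tested. F10 was called lower, with 173.54 and 445.57 expected counts, a log2 ratio of −1.23 and a fold of 0.424 (0.354 to 0.506), beside 2.34% of all genes. Of the 9 genes tested between the lines, 8 had a log2 ratio below 0. Among them, the counting intervals of F5 and Serpinb2 spanned 0. The median over all genes was 0.13, and 0.0019 under TMM scaling. Anxa2 (−0.95), S100a10 (−0.86) and F13a1 (−0.85) passed the test of counts and lay inside the 2-fold threshold, and Anxa2 was called lower at −1.08 under TMM scaling. Plaur had a log2 ratio of −1.17 and an adjusted p of 0.0120 by the exact Poisson test, which did not pass. F7 (−0.30), F5 (−0.14) and Serpinb2 (3 and 1 counts) were not called.

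Around the 8 members other than F7 and F10, the 3 protein-coding genes on each side gave 48 neighbours, 38 of them with a count in some library. In that group 4 were called higher and 10 lower in TR1, beside 8.13% and 13.2% of all genes tested. In TR9, 4 were called higher and 9 lower, beside 9.48% and 10.9%. Under TMM scaling, Cnn3 beside F3 and Lyrm4 beside F13a1 lost their lower calls in TR1. None of the 6 beside Anxa2 was called in either line. Beside F5, Selp, the selectin gene of platelets, was called lower in both lines (175, 17 and 10 counts). Beside F13a1, Ly86 was called lower in both (164, 10 and 22 counts).

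The wider clotting and fibrinolysis pathway and the gene families of members were read through 107 other genes in 13 lists. All are called pathway lists here, and 83 of the genes were listed in a library. The annexin, S100, clade B serpin and transglutaminase lists hold relatives of members, not pathway genes as such. S100 genes gave 5 of the higher calls below in TR1 and 6 in TR9, and granulocyte proteases gave 5 and 4. The pooled counts therefore do not describe the clotting pathway alone. In TR1, 21 of 78 tested were called higher and 15 lower, beside 8.13% and 13.2% of all genes. In TR9, 18 of 81 were called higher and 10 lower, beside 9.48% and 10.9%. The median log2 ratios were 0.19 and 0.27, beside −0.29 and −0.12 over all genes.

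**Figure D4:**
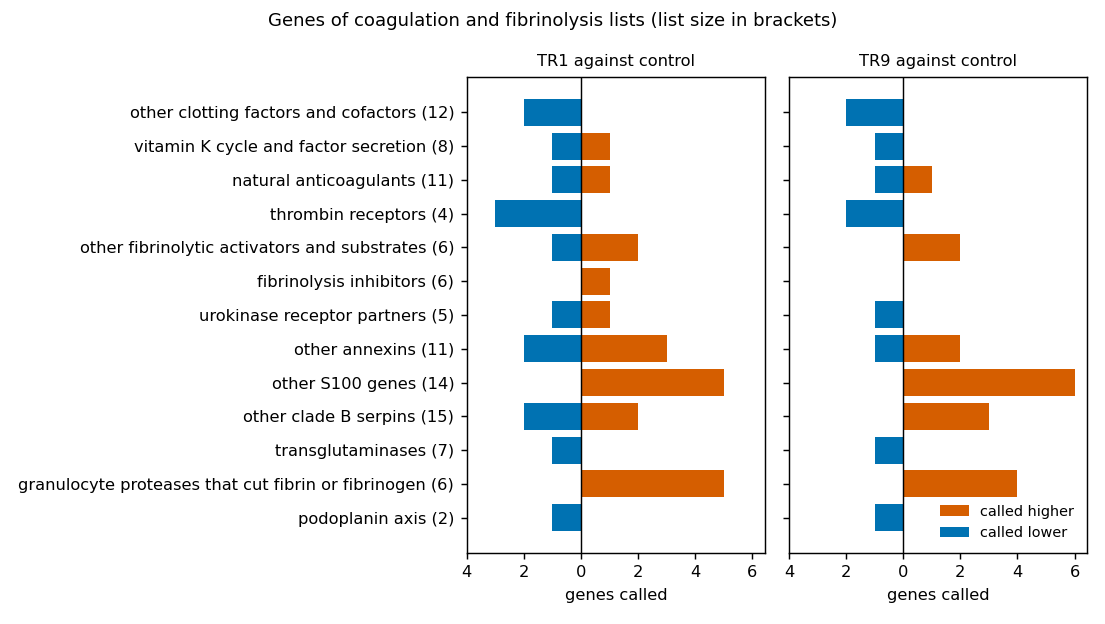
Number of genes called higher and lower against control in TR1 and TR9 for each of the 13 pathway and family lists. Bars point to the right for higher and to the left for lower. Thrombin receptors and other clotting factors hold lower calls and no higher ones, and S100 genes and granulocyte proteases hold higher calls and no lower ones.

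Clotting factors outside the set were scarce or fell. Of 12 other factors and cofactors, 6 were listed, 0 were called higher, and Vwf and F8 were called lower in both lines. Vwf, which carries factor VIII and tethers platelets, had 1179, 23 and 30 counts in control, TR1 and TR9. F8 had 53, 6 and 9. The fibrinogen genes Fga, Fgb and Fgg were not listed in any library. Of 4 thrombin receptor genes, 3 were called lower in TR1 and 2 in TR9, among them F2r, the main thrombin receptor (473, 1 and 11 counts), and F2rl2 (413.81, 3 and 10 counts). F2rl3 (43, 14 and 24 counts) was called in TR1, and lost that call under TMM scaling. Clec1b, the platelet receptor of podoplanin, was called lower in both (179, 8 and 4 counts), and podoplanin itself, Pdpn, had 4, 0 and 0 counts. These genes moved with the megakaryocyte and platelet markers, but 4 of 5 stroma and 3 of 4 endothelial markers were also called lower in both lines. The part of any of these cells in them was not tested.

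Genes that restrain clotting and genes that load and fold the factors were mixed. Of 8 listed natural anticoagulants, 1 was called higher and 1 lower in each line. Tfpi2, a protease inhibitor related to the tissue factor pathway inhibitor, had 2, 32 and 35 counts and was called higher, and Pros1, the gene of protein S, had 148, 13 and 42 counts and was called lower. Tfpi, the inhibitor of tissue factor and factor VII itself, had 256, 484 and 292 counts and was not called, but its log2 ratio of 0.83 in TR1 became 1.08 under TMM scaling and was then called higher. Of 8 vitamin K cycle and factor secretion genes, Mcfd2, which helps secrete factors V and VIII, was called higher in TR1 (222, 613 and 389 counts), and also in TR9 under TMM scaling (log2 ratio 1.01). Vkorc1l1, a vitamin K reductase gene, was called lower in both (317, 154 and 146 counts), with log2 ratios of −1.05 and −1.0 that became −0.80 and −0.90, and were not called, under TMM scaling. P4hb, a protein disulfide isomerase gene, had the highest level of the list, 679.30 FPKM in TR1, where its log2 ratio was 0.87 and became 1.12, called higher, under TMM scaling.

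On the fibrinolytic side, 2 of 5 listed activator and substrate genes were called higher in both lines. Eno1, enolase 1, which can bind plasminogen at the surface, had 2154.19, 6261.30 and 5484.05 expected counts and was called higher in both lines. Lrp1, which clears urokinase and inhibitor complexes, was also called higher in both, with 208, 905 and 622 counts. Plgrkt, a plasminogen receptor gene, was called lower in TR1 (114, 37 and 90 counts). The other activator, Plat, had 3, 2 and 1 counts, and Plg had 2, 0 and 1. Serpine2, protease nexin 1, was called higher in TR1 and not in TR9 (411, 999 and 236 counts). Of 5 integrin genes whose products partner the urokinase receptor, Itgam was called higher in TR1 (170.76, 920.82 and 199.11 counts) and Itgb3, also a platelet integrin, lower in both (1921.46, 26.55 and 27.61 counts). Itgb1 had the highest level of that list, 103.85 FPKM in control.

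The families of Anxa2, S100a10, Serpinb2 and F13a1 did not move as a whole with these members. Of 10 annexin genes tested, 3 were called higher and 2 lower in TR1, and 2 higher and 1 lower in TR9, and under TMM scaling Anxa4 lost its lower call in TR1. Anxa3 was called higher in both (266, 706 and 1049 counts), as Anxa2 was, and Anxa1, an anti-inflammatory annexin, in TR1 (639, 5868 and 607 counts). Anxa13 had 0, 20 and 8 counts. Among S100 genes, 5 of 8 were called higher in TR1 and 6 of 10 in TR9, and 0 were called lower in either, whereas S100a10 was called lower in TR9. S100a8 (72, 16553 and 4486 counts) and S100a9 (68, 33021 and 4185 counts), the calprotectin genes of granulocytes, were the most extreme, and S100a6 had 25, 270 and 70 counts. Of 8 clade B serpins tested in TR1, 2 were called higher and 2 lower, and of 9 in TR9, 3 were called higher and 0 lower. Serpinb1a, an inhibitor of neutrophil proteases, rose in both lines (525.97, 3958 and 2051 counts). Serpinb6b (53, 5 and 40.94 counts) and Serpinb9 (50, 11 and 56.61 counts) were called lower in TR1, as Serpinb2 was. Among transglutaminases, Tgm2, a tissue transglutaminase, fell in both with 197, 2 and 3 counts, opposite to F13a1. Elane, Ctsg and Prtn3, granule proteases able to cut fibrin, and the collagenase gene Mmp8 were called higher in both lines, and Elane reached 9103 FPKM in TR1 and 13178 FPKM in TR9. Elane, Ctsg, Prtn3 and S100a8 are also among the promyelocyte and granulocyte markers.

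**Figure D5:**
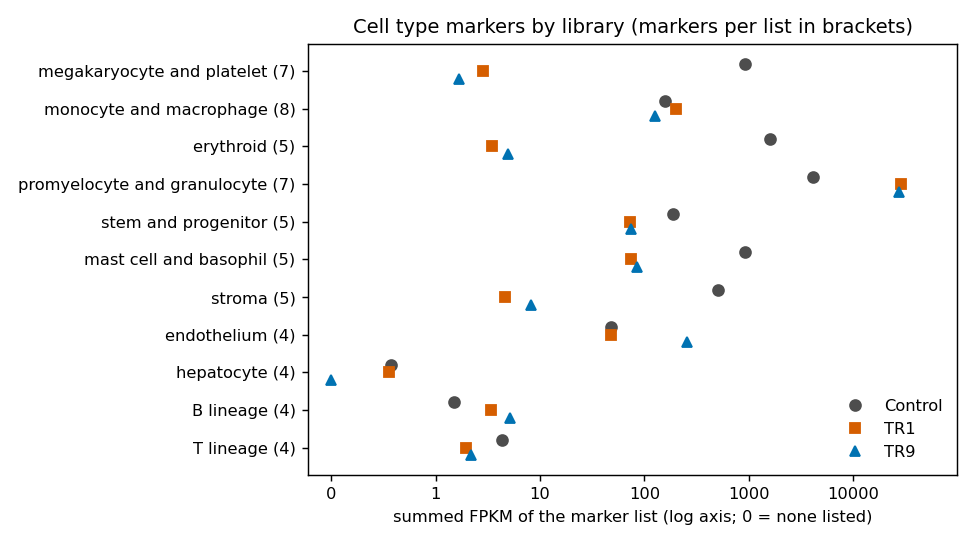
Summed FPKM of each cell type marker list in the control, TR1 and TR9 libraries on a logarithmic axis. Promyelocyte and granulocyte markers are higher in the TR lines, and megakaryocyte, erythroid, stroma and mast cell markers are lower.

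Markers of other cells moved with the groups as well. Erythroid markers had a summed level of 1593 FPKM in control, 3.45 FPKM in TR1 and 4.92 FPKM in TR9, with 5 of 5 called lower in both lines, and stem and progenitor markers had 189, 73.5 and 73.7 FPKM. Endothelial markers summed to 47.9, 47.5 and 256 FPKM, nearly all from Pecam1, with Kdr and Tek at 0 counts in both TR libraries. B lineage markers summed to 1.5, 3.35 and 5.20 FPKM and T lineage markers to 4.27, 1.93 and 2.18 FPKM. The part of these cells in the values above was not tested.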

How the data were processed

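RNA-seq of 3 mouse libraries was analysed, 1 per group, each pooling 3 mice, with groups taken from the labels. BWA and Bowtie were used by the authors to map filtered reads, and RSEM to estimate expression. Each deposited file gives per gene the expected count, an estimate that is not normalized and need not be whole. It also gives FPKM, scaled by the authors with RSEM to transcript length and sequencing total. The submitters' processing notes list mm9 without a role, and the versions are not given in the sources used here. Between 19.9% and 21.2% of the listed expected counts were not whole. They were rounded for tests, and an unlisted gene was taken as 0. Reads that fit several genes may have been divided between them, which bears on F10.

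Gene IDs were named through RefSeq GRCm38.p6 (16698 of 16742 matched), which also gave gene order and promoter sequences, found for 8 of the 10 members. Its gene coordinates were not used with the deposited files. Expected counts of 2 libraries were compared by a two-sided exact Poisson test given their totals (scipy 1.17.1), with p-values adjusted by Benjamini-Hochberg over all genes that either lists. Log2 ratios were of FPKM, with values under 0.01 set to 0.01. A count of 0 was taken to allow up to 3 counts.

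The members and all lists were chosen with earlier results of these data known. Named genes were the members; in each pathway list the gene of highest FPKM and the called genes with the 3 largest mean changes among those with at least 20 counts in a library; the 3 genes nearest by log2 ratios to the highest and lowest member (S100a10 being the lowest with more than 3 counts throughout); and neighbours of members. Genes at low counts, not-listed genes and others called in 1 line, named beside these, were chosen after their values were seen.

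Alternatives were TMM (edgeR 4.0.16) and median-of-ratios (DESeq2 1.42.0) scaling in R 4.3.3, CPM in place of FPKM, 0.001 FPKM as the floor, 1 FPKM as a pseudocount, at least 10 counts, edgeR's exact test at an assumed coefficient of variation of 0.4, and thresholds of 0.05 for the false discovery rate or 2 for the log2 ratio. Scripts (Python 3.11.15) were tested on simulated data.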

Additional observations from a re-analysis of the deposited data

Results flagged for a closer look

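Between the TR lines, these genes differed by the exact Poisson test and by 2-fold or more, which compares 2 libraries without replicates. All values are log2 ratios of FPKM in TR9 against TR1.

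Among the members, Plau differed by 2.12 and F10 by −1.23, and beside F10 the neighbour Atp11a differed by −1.34. Higher in TR9 were the protein S gene Pros1 (1.81) and the plasminogen receptor gene Plgrkt (1.40). Lower in TR9 were the inhibitor gene Serpine2 (−1.96) and the integrin gene Itgam (−2.09).

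In the annexin family, Anxa4 (2.62) and Anxa6 (1.13) were higher in TR9, and Anxa1 (−3.15) and Anxa9 (−1.28) were lower. Against control, Anxa4 was called lower in TR1 and higher in TR9, with 104, 45 and 255 counts in control, TR1 and TR9, and its TR1 log2 ratio of −1.23 became −0.98 and was not called under TMM scaling. The TR9 against TR1 call of Anxa6 was also lost under TMM scaling (0.999). In the S100 family, S100a6 (−1.83), S100a8 (−1.76) and S100a9 (−2.86) were lower in TR9.

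Of the clade B serpins, Serpinb6a (2.73), Serpinb6b (3.16) and Serpinb9 (2.48) were higher in TR9. These serpins have near-identical copies, and their expected counts were not whole in TR9. The transglutaminase gene Tgm1 (−2.78, with 23 and 3 counts in TR1 and TR9) and the collagenase gene Mmp8 (−2.07) were lower.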

How the results depend on the processing

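No direction of a member's log2 ratio that had been called was reversed under any alternative. Over all alternatives, a member's log2 ratio kept its side of the threshold in 239 cases, lost its call in 15 and gained one in 4. No paired analysis was possible because each group has 1 library. Under edgeR's exact test with an assumed coefficient of variation of 0.4, 1 member (F7) was called higher and 0 lower in TR1, 1 higher and 0 lower in TR9, and 0 higher and 0 lower in TR9 against TR1. Of the pathway genes, 3 were called higher and 6 lower in TR1, 3 and 6 in TR9, and 0 and 0 between the lines. Over all genes, that test called 170 higher and 347 lower in TR1 in place of 1323 and 2152, 161 and 287 in TR9 in place of 1546 and 1783, and 13 and 2 between the lines in place of 692 and 367. A false discovery rate of 0.05 gave 2 members lower in TR1 and 2 between the lines. A log2 ratio of at least 2 gave 1 member higher and 1 lower in TR9, 9 pathway genes higher in TR9, 0 members lower between the lines, and 4 pathway genes higher and 5 lower there; over all genes it called 686 and 1158 in TR1, 751 and 941 in TR9, and 290 and 137 between the lines. TMM and median-of-ratios scaling each gave 2 members lower between the lines, and TMM moved the lower share of all calls from 61.9% to 48.5% in TR1, from 53.6% to 46.8% in TR9 and from 34.7% to 45.1% between the lines. Plau, Plaur, Serpinb2 and F3 rest on few counts, and depth limits them.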
